A study of Mus musculus with 14 samples.

Results

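Gangliosides are sialic acid-bearing glycolipids of the cell surface, and 9 genes of their synthesis and breakdown were followed in CD11b+ cells of the injured mouse brain. The 9 genes were chosen by name from the 33939 genes of the expression table, 6 for synthesis (*Ugcg*, *B4galt6*, *St3gal5*, *B4galnt1*, *B3galt4* and *St3gal2*) and 3 for breakdown (*Neu1*, *Hexa* and *Gm2a*). All 9 were found by symbol and passed the filter on low values in each comparison. Bulk RNA sequencing was made from 14 samples of CD11b+ cells, which were taken with magnetic beads 3 days after a controlled cortical impact (TBI). Ctrl mice were Cx3cr1-CreER+/- and cKO mice Cx3cr1-CreER+/-;Nhe1flox/flox, all of strain C57BL/6, aged 8-12 weeks and given tamoxifen. Each brain was parted into the hemisphere with the lesion (IL) and the opposite one (CL), which gave 4 libraries per hemisphere in Ctrl and 3 per hemisphere in cKO. The libraries carry the numbers of 8 mice, of which 6 (4 Ctrl and 2 cKO) gave both hemispheres, so that separate animals stand behind the libraries of a group. In cKO, 784 gave only an IL and 788 only a CL library, and the labels do not say if both are 1 mouse. The deletion depended on the *Cx3cr1* promoter, which is active in microglia and in other myeloid cells, and Ctrl mice carried the same Cre without floxed alleles. CD11b also marks infiltrating monocytes, macrophages and neutrophils, so the sorted cells were a mixture.

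In the textbook pathway, *Ugcg* codes for glucosylceramide synthase, which starts the chain, and *B4galt6* for a lactosylceramide synthase. *St3gal5* (GM3 synthase) adds the sialic acid that makes GM3, the precursor of the more complex gangliosides. *B4galnt1* (GM2/GD2 synthase) acts on GM3 and on GD3, *B3galt4* makes GM1, and *St3gal2* adds the terminal sialic acid of GD1a and GT1b. Breakdown takes place in lysosomes, where the sialidase coded by *Neu1* removes sialic acids and hexosaminidase A, whose alpha subunit is coded by *Hexa*, splits GM2 presented by the activator protein of *Gm2a*. Loss of hexosaminidase A or of the activator leads to GM2 storage in neurons, and GM3 and GM1 are known as modulators of receptors in the plasma membrane of immune and neural cells.

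In GRCm38 (mm10), *St3gal5* lies on chromosome 6 (72097592-72154571, plus strand), *B4galnt1* on chromosome 10 (127165225-127172330, plus strand) and *Neu1* on chromosome 17 (34931253-34935953, plus strand). These 3 genes were the members called between IL and CL in both genotypes. *Ugcg* is on chromosome 4 (59189257-59222833, plus strand), *B3galt4* on chromosome 17 (33949909-33951488, minus strand), *St3gal2* on chromosome 8 (110919922-110972480, plus strand), *Hexa* on chromosome 9 (59539540-59565109, plus strand) and *Gm2a* on chromosome 11 (55098115-55113029, plus strand). The promoter sequences of *St3gal5*, which fell, and of *Neu1*, which rose, are shown because these members were called in opposite directions in both genotypes. Each is the 250 bases before the RefSeq start (GRCm38.p6, plus strand), at chr6:72097358-72097607 and chr17:34931003-34931252. The *St3gal5* window ends inside the gene as the GENCODE annotation draws it, and the *Neu1* window ends at the base before the annotated gene. Capitals mark matches on either strand to the GC box, searched as the letters GGGCGG, and to the CCAAT box, searched as its 5 named letters. The E-box, searched as the palindrome CACGTG, would also be in capitals.
St3gal5: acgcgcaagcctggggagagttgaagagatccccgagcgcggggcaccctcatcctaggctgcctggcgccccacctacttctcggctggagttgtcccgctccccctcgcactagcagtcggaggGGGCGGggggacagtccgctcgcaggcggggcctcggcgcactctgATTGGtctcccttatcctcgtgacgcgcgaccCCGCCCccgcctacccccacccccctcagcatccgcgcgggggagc
Neu1: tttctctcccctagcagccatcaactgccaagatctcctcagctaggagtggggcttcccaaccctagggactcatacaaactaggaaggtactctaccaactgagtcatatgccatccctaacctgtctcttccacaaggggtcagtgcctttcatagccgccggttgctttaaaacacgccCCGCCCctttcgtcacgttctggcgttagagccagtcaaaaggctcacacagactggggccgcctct
The *St3gal5* window held 2 GC boxes and 1 CCAAT box, and the *Neu1* window held 1 GC box. Neither window held the E-box. Among 32851 promoter windows of the same length, 32.7% held the GC box, 33.8% the CCAAT box and 6.02% the E-box, and no motif overlapped another in the windows shown. Promoters of *B4galnt1*, *B4galt6* and *St3gal2* are not shown.

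Gene levels are in CPM, the reads of a gene per 1e+06 assigned reads, and the depth behind them was 12.2 to 41.6 M reads per library, where 1 M is 1e+06. All 6 homeostatic microglial markers of the list (*P2ry12*, *Tmem119*, *Cx3cr1*, *Sall1*, *Siglech* and *Gpr34*) were above 0 in each group, and their summed level was 10737 to 15431 CPM in the CL libraries and 5067 to 6964 CPM in the IL libraries. The summed level of 6 neutrophil markers was highest in the CL library of Ctrl mouse 3541, at 3285 CPM, and its range was 237 to 3285 CPM in the CL and 36.8 to 533 CPM in the IL libraries. Neuronal markers summed to 2.76 to 21.1 CPM and oligodendrocyte markers to 80.9 to 193.9 CPM. Astrocyte markers summed to 22.03 to 53.6 CPM in the CL and 41.4 to 96.1 CPM in the IL libraries, and infiltrating monocyte markers to 76.2 to 661 CPM in the CL and 139 to 338 CPM in the IL libraries. Immediate early and heat shock genes that respond to tissue dissociation (*Fos*, *Jun*, *Egr1* and 7 others) summed to 27590 to 42442 CPM in the CL and 19340 to 22896 CPM in the IL libraries. In such bulk samples, fewer cells of a type and less RNA per cell cannot be told apart.

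Levels of different genes were compared per kb of exon. *Hexa* and *Gm2a* led, with a median over the 14 libraries of 634.0 CPM per kb for *Hexa* and 112.5 CPM per kb for *Gm2a*. *St3gal5* came next at 68.8 CPM per kb, followed by *B4galnt1* at 32.01 and *Neu1* at 31.8 CPM per kb. *St3gal2* had a median of 14.8, *B3galt4* of 7.23, *Ugcg* of 6.29 and *B4galt6* of 2.85 CPM per kb. *Hexa* exceeded *Gm2a*, *Neu1* exceeded *St3gal2*, *St3gal2* exceeded *B3galt4* and *Ugcg* exceeded *B4galt6*, each in 14 of 14 libraries. The other neighbours in this order changed places between libraries. *Gm2a* exceeded *St3gal5* in the 10 libraries other than Ctrl CL and was under it in all 4 of Ctrl CL. *St3gal5* exceeded *B4galnt1* in 12 of 14, and both exceptions were in cKO IL. *B4galnt1* exceeded *Neu1* in 6 of 6 cKO libraries and was under it in 8 of 8 Ctrl libraries. *B3galt4* exceeded *Ugcg* in 11 of 14 libraries.

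Part of the exons of 2 members is shared with a gene on the other strand, and the library kit is not stated to keep strand. *B4galnt1* shares 715 exon bases (20.7% of its exons) with *Slc26a10*, which was at 1.97 to 5.80 CPM. *Hexa* shares 255 exon bases (12.8%) with *Tmem202*, at 0.572 to 2.39 CPM. Reads of the shared parts cannot be told apart by gene, and both partners had levels far under those of the members. The exons of the other 7 members overlap no annotated gene.

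**Figure D1:**
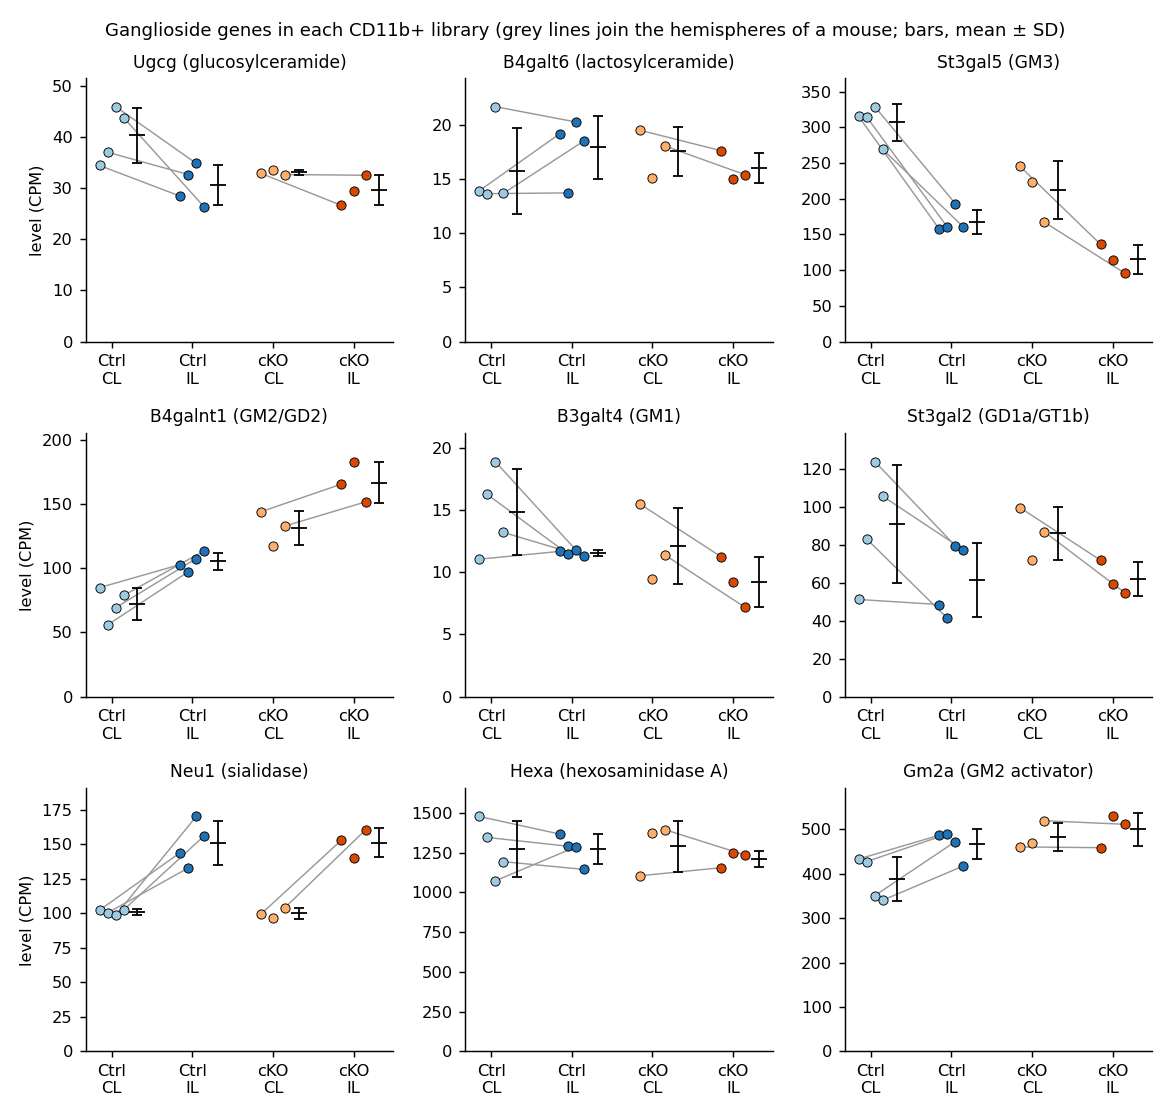
Level (CPM, linear axes from 0) of each of the 9 genes in the 4 groups, with n = 4 for either hemisphere of Ctrl and n = 3 for either hemisphere of cKO. Points are libraries, grey lines join the hemispheres of a mouse, and the bar at the right of each group is the mean ± SD. *St3gal5* is highest in Ctrl CL (269 to 329 CPM) and lowest in cKO IL (95.8 to 136 CPM), *B4galnt1* is lowest in Ctrl CL (55.8 to 84.9 CPM) and highest in cKO IL (152 to 183 CPM), and the groups of *Hexa* overlap.

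The comparison of IL with CL within a genotype asks how the injured side differed from the opposite side of the same brains. *St3gal5*, the entry enzyme to gangliosides, was lower on the injured side in both genotypes, and *B4galnt1* and *Neu1* were higher. The first 2 enzymes of the chain, *Ugcg* and *B4galt6*, were not called, nor were *B3galt4*, *St3gal2*, *Hexa* or *Gm2a*. In each genotype 3 of the 9 genes were called, 2 higher and 1 lower, which compares with 6.58% of 16376 genes tested in Ctrl and 22.4% of 16757 genes tested in cKO. A gene is named as called when limma on log2(CPM + 1) gave a fold change of at least 1.2 and a p of at most 0.05 after Benjamini-Hochberg adjustment over all genes tested. The libraries of IL and CL did not overlap for 3 of the 9 genes in Ctrl, against 17.7% of all genes, and for 4 of the 9 in cKO, against 42.4%. Marker sums moved with these calls. In 6 of 6 mice that gave both hemispheres, sums of the sorted-cell, homeostatic microglial, neutrophil, oligodendrocyte and dissociation response genes were lower in IL. The astrocyte sum was higher in IL in these mice. Within the astrocyte list, *Slc1a2* had lower means in IL, at 2.22 against 3.27 CPM in Ctrl and 2.17 against 2.92 CPM in cKO. In cKO, the oligodendrocyte sums overlapped as groups, at 95.1 to 139 CPM in IL and 80.9 to 113 CPM in CL. Of that list, *Mobp* (6.11 to 8.90 against 2.16 to 4.61 CPM) and *Cldn11* were higher in IL of cKO without overlap. The infiltrating monocyte sums overlapped, but of their 6 genes *F10* was higher in IL without overlap in both genotypes, at 22.3 to 41.2 against 0.560 to 6.13 CPM in Ctrl and at 23.9 to 31.3 against 1.24 to 3.91 CPM in cKO, as was *Ccr2* in Ctrl and *Plac8* in cKO. *Ly6c2* of the same list was lower in IL in 4 of 4 Ctrl mice and *Chil3* in 3 of 4. Their part in the calls was not tested.

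*St3gal5* was at 315, 314, 329 and 269 CPM in the CL libraries of Ctrl mice 3541, 3545, 3546 and 3551. In the IL libraries of these mice it was at 157, 160.3, 193 and 160.3 CPM, respectively. Every IL level was under every CL level, and the means were 307 ± 26.1 (SD, n = 4) in CL and 168 ± 16.9 CPM (SD, n = 4) in IL. The log2 fold change, on the log2(CPM + 1) scale, was -0.80 (SE 0.16, adjusted p = 0.0161), a level 1.74-fold lower. In cKO, *St3gal5* was at 245, 224 and 167 CPM in the CL libraries of mice 3592, 788 and 791, and at 136, 114 and 95.8 CPM in the IL libraries of mice 3592, 784 and 791. Again the hemispheres did not overlap, with means of 212 ± 40.2 and 115 ± 20.2 CPM (SD, n = 3 each) and a log2 fold change of -0.79 (SE 0.16, adjusted p = 0.0110). *St3gal5* was lower in IL in 6 of 6 mice that gave both hemispheres, by 0.56 to 0.92 on the log2 scale. When Ctrl mouse 3551 was left out of the IL group, the adjusted p was 0.0533.

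*B4galnt1* was at 84.9, 55.8, 69.2 and 78.8 CPM in the CL libraries of Ctrl mice 3541, 3545, 3546 and 3551. It was at 103, 97.2, 108 and 114 CPM in their IL libraries, so that the hemispheres did not overlap. The means were 72.2 ± 12.7 CPM in CL and 105 ± 6.96 CPM in IL (SD, n = 4 each), with a log2 fold change of 0.63 (SE 0.16, adjusted p = 0.0495). In cKO, it was at 144, 117 and 133 CPM in the CL libraries of mice 3592, 788 and 791, and at 166, 183 and 152 CPM in the IL libraries of mice 3592, 784 and 791. The lowest IL level was above the highest CL level, and the log2 fold change was 0.43 (SE 0.10, adjusted p = 0.0223). *B4galnt1* was higher in IL in 6 of 6 mice, by 0.24 to 0.88 on the log2 scale. With the mouse as a block, the call in Ctrl held (adjusted p = 0.00511), and the call in cKO was lost (log2 fold change 0.30, adjusted p = 0.162), where only 2 of the mice gave both hemispheres. With 784 and 788 taken as 1 mouse, the block kept the call in cKO (log2 fold change 0.43, adjusted p = 0.0242), in a fit that called 26.7% of genes. Both calls lay near the threshold, and leaving out single libraries gave an adjusted p of up to 0.165 in Ctrl, without the IL library of mouse 3541, and of up to 0.0941 in cKO, without the IL library of mouse 784.

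*Neu1*, the lysosomal sialidase, was at 102, 100.4, 98.7 and 103 CPM in the CL libraries of Ctrl mice 3541, 3545, 3546 and 3551. In their IL libraries it was at 144, 133, 170.3 and 156 CPM. In cKO, it was at 99.4, 96.7 and 104 CPM in the CL libraries of mice 3592, 788 and 791, and at 153, 140.3 and 161 CPM in the IL libraries of mice 3592, 784 and 791. The 7 CL libraries of both genotypes lay within 96.7 to 104 CPM, a narrow range, and all 7 IL libraries were above it. After scaling over 14 libraries the CL range was wider, at 6.46 to 6.80 on the log2 scale, against 7.22 to 7.46 in IL. The log2 fold change was 0.64 in Ctrl (SE 0.13, adjusted p = 0.0202) and 0.67 in cKO (SE 0.10, adjusted p = 0.00418), and the level was higher in IL in 6 of 6 mice. In Ctrl, the adjusted p was 0.0991 when mouse 3541 was left out of the IL group, 0.07495 when mouse 3545 was left out of it, and 0.0572 when mouse 3546 was left out of the CL group.

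*Gm2a*, the activator that presents GM2 to hexosaminidase A, was at 433, 427, 350.5 and 340.3 CPM in the CL and at 486, 489, 472 and 417 CPM in the IL libraries of Ctrl mice 3541, 3545, 3546 and 3551. The IL level was the higher in each of these 4 mice, although the hemispheres overlapped as groups. The log2 fold change was 0.34 (SE 0.21, adjusted p = 0.391). With the mouse as a block the SE was 0.08 and the gene was called (adjusted p = 0.0213), in a fit that called 20.5% of genes, while in cKO the block called 13.8% of genes and not *Gm2a* (log2 fold change 0.09, adjusted p = 0.723). *Hexa*, the most abundant member, was at 1072 to 1477 CPM in CL and 1144 to 1366 CPM in IL of Ctrl mice, with a log2 fold change of 0.08 (95% CI -0.40 to 0.57). In cKO, *Hexa* was at 1104 to 1395 CPM in CL and 1155 to 1246 CPM in IL, with a log2 fold change of 0.00 (95% CI -0.37 to 0.37).

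*St3gal2*, which completes GD1a and GT1b, was at 51.2, 83.1, 124 and 106 CPM in the CL libraries of Ctrl mice 3541, 3545, 3546 and 3551, and at 48.5, 41.3, 79.4 and 77.3 CPM in their IL libraries. Mice 3546 and 3551 had the higher levels on both sides, and the hemispheres overlapped (log2 fold change -0.46, SE 0.23, adjusted p = 0.289). In cKO, *St3gal2* was at 99.6, 71.7 and 86.9 CPM in the CL libraries of mice 3592, 788 and 791 and at 71.9, 59.2 and 54.8 CPM in the IL libraries of mice 3592, 784 and 791. These ranges met at 71.7 and 71.9 CPM, and the difference of -0.38 (SE 0.12) had an adjusted p of 0.0521, which was 0.0225 in a block with 784 and 788 as 1 mouse. *Ugcg* ranged from 26.3 to 45.96 CPM, *B3galt4* from 7.16 to 18.9 CPM and *B4galt6* from 13.7 to 21.7 CPM over the 14 libraries. For these 3 genes the log2 fold changes of IL against CL lay between -0.31 and 0.26, with adjusted p from 0.294 to 0.844. In Ctrl, *B3galt4* was at 11.03 to 18.9 CPM in CL and at 11.3 to 11.8 CPM in IL.

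**Figure D2:**
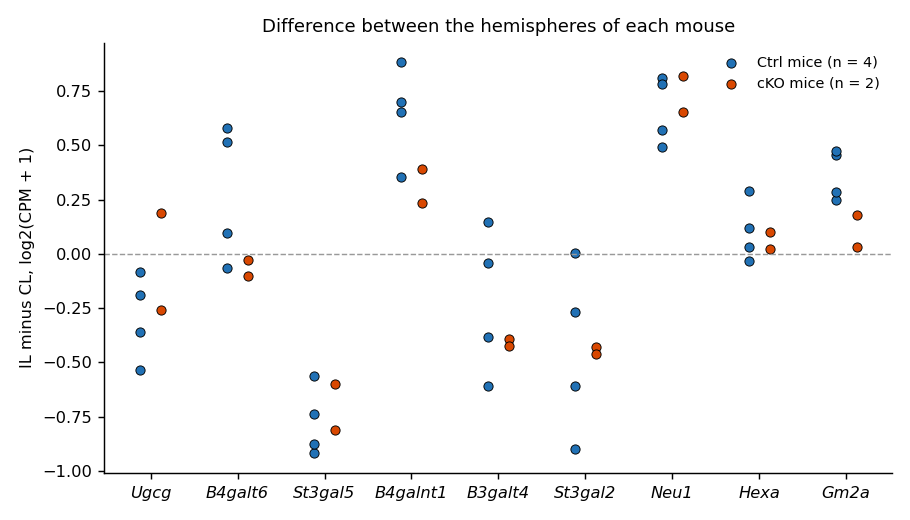
Difference between the IL and CL library of each of the 6 mice that gave both, on the log2(CPM + 1) scale after scaling over 14 libraries, for 4 Ctrl mice (blue) and 2 cKO mice (orange). The dashed line marks no difference. All 6 points lie under the line for *St3gal5* and above it for *B4galnt1* and *Neu1*, and the points of *B4galt6* lie on both sides.

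The comparison of cKO with Ctrl asks how the deletion of *Nhe1* bore on these genes on each side of the brain. *B4galnt1* had the largest difference of the 9 genes, with higher levels in every cKO library than in any Ctrl library of the same side. *St3gal5* was lower in CPM in every cKO library than in any Ctrl library of the same side. Neither passed the threshold of the main comparison in IL or CL, and 0 of 9 genes were called in each, where 0.658% of 16873 genes in IL and 0.875% of 16570 genes in CL were called. At an unadjusted p under 0.05 there were 2 of the 9 genes in IL and 2 in CL, *St3gal5* and *B4galnt1* both times, against 8.9% of all genes tested in IL and 9.81% in CL. In CPM, the genotypes did not overlap for 3 of the 9 genes in IL, against 10.3% of all genes tested. In CL this held for 4 of the 9, against 10%. Overlap was judged on CPM before the scaling used in the tests. After scaling over 14 libraries, *B3galt4* in IL, *Gm2a* in CL and *St3gal5* in CL overlapped. For *St3gal5* the log2 levels met at 7.877 in Ctrl mouse 3551 and 7.878 in cKO mouse 3592. The study reported *B4galnt1* as elevated in cKO from these libraries, in its account of IL and with another test (Partek Flow). The main fit here did not call the gene, and its direction is not independent evidence.

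In IL, *B4galnt1* was at 97.2 to 114 CPM in the Ctrl libraries and at 152 to 183 CPM in the cKO libraries, with a log2 fold change of 0.67 (SE 0.12, 95% CI 0.40 to 0.94, adjusted p = 0.0547). In CL, the ranges were 55.8 to 84.9 CPM in Ctrl and 117 to 144 CPM in cKO, and the log2 fold change was 0.86 (SE 0.18, 95% CI 0.47 to 1.25, adjusted p = 0.0550). These adjusted p values sat just above the threshold, and over the alternatives they ranged from 0.0219 to 0.303 in IL and from 0.00434 to 0.261 in CL. In CL, the gene was called when all 14 libraries entered 1 fit (log2 fold change 0.86, adjusted p = 0.00691), and also with mice as a random effect in that fit (log2 fold change 0.89, adjusted p = 0.00434), which called 1.57% of 18476 genes. Leaving out the CL library of Ctrl mouse 3541, which had the highest neutrophil markers, gave a log2 fold change of 0.995 and an adjusted p of 0.0135. Leaving out Ctrl mouse 3546 from the IL comparison, whose library was the least deep, gave 0.61 and an adjusted p of 0.0219 in IL. That fit called 284 genes of all tested against 111 with every library, while leaving out any other single library called 46 to 113.

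*St3gal5* had a log2 fold change of -0.53 in IL (SE 0.12, 95% CI -0.80 to -0.26, adjusted p = 0.132) and of -0.55 in CL (SE 0.19, 95% CI -0.98 to -0.12, adjusted p = 0.341). Its lowest adjusted p over the alternatives was 0.0590 in IL and 0.0972 in CL. The sums of the homeostatic microglial markers overlapped between the genotypes, at 5067 to 6964 CPM in Ctrl IL and 5655 to 6125 CPM in cKO IL, and at 10737 to 15431 CPM in Ctrl CL and 11158 to 14811 CPM in cKO CL. The oligodendrocyte sums overlapped in IL, but in CL they were lower in every cKO library, at 80.9 to 113 CPM against 126 to 193.9 CPM in Ctrl. The dissociation response sums overlapped, at 19340 to 21565 and 19831 to 22896 CPM in IL and at 27590 to 35780 and 30399 to 42442 CPM in CL for Ctrl and cKO, but 4 of the 10 genes behind them did not overlap on either side. *Egr1* and *Ier2* were higher in each cKO library, and the heat shock genes *Hspa1a* and *Hspa1b* were lower. In IL, *Ier2* was at 1139 to 1431 CPM in Ctrl and 1800 to 2174 CPM in cKO, and *Hspa1b* was at 289 to 757 CPM in Ctrl and 66.9 to 131 CPM in cKO. The part of these markers in the differences of *B4galnt1* and *St3gal5* was not tested.

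The other 7 genes differed less between the genotypes. In IL, *B3galt4* was at 11.3 to 11.8 CPM in Ctrl and 7.16 to 11.2 CPM in cKO, without overlap but by a narrow margin (log2 fold change -0.31, SE 0.17, adjusted p = 0.706). In CL, *Ugcg* was at 34.5 to 45.96 CPM in Ctrl and 32.7 to 33.7 CPM in cKO (log2 fold change -0.28, SE 0.15, adjusted p = 0.587), and *Gm2a* was at 340.3 to 433 CPM in Ctrl and 460.1 to 519 CPM in cKO (log2 fold change 0.31, SE 0.20, adjusted p = 0.661). These 2 also did not overlap in CPM in CL, and each overlapped in IL. *Neu1* differed by 0.02 in IL (95% CI -0.22 to 0.26) and by -0.02 in CL (95% CI -0.35 to 0.31) on the log2 scale. *Hexa* differed by -0.05 in IL (95% CI -0.43 to 0.33) and by 0.02 in CL (95% CI -0.50 to 0.53). For *St3gal2* the differences were 0.07 in IL (95% CI -0.34 to 0.47) and -0.03 in CL (95% CI -0.51 to 0.46), and for *B4galt6* -0.13 in IL (95% CI -0.48 to 0.22) and 0.16 in CL (95% CI -0.29 to 0.61). Intervals of this width do not show that the genotypes were alike.

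**Figure D3:**
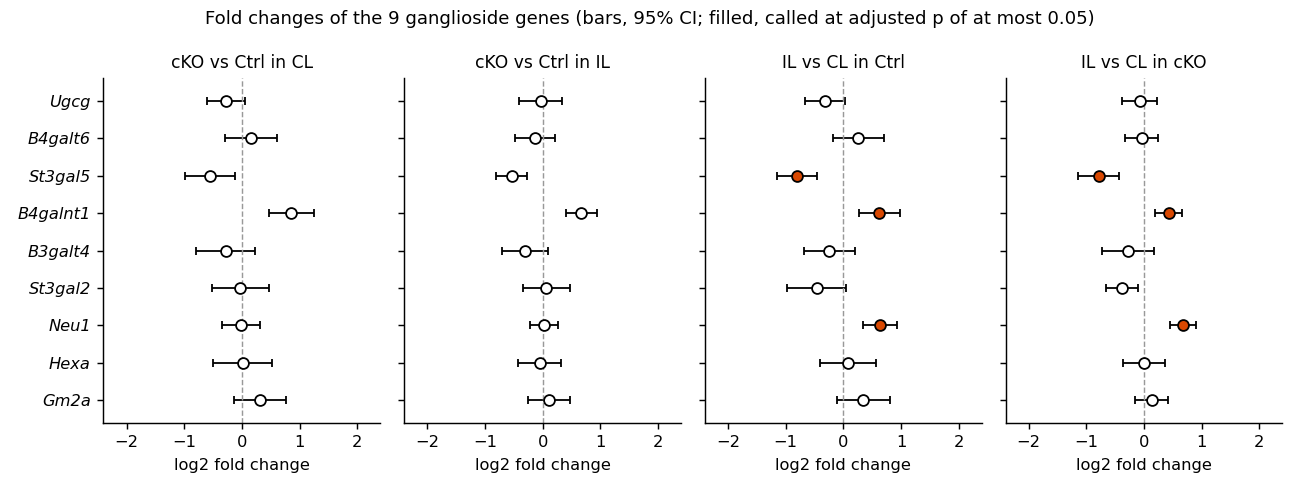
Log2 fold change with its 95% confidence interval for the 9 genes in 4 comparisons, on the log2(CPM + 1) scale. Filled points are called, and the dashed line marks no change. *St3gal5*, *B4galnt1* and *Neu1* are filled in both comparisons of IL with CL, and no gene is filled in the comparisons of cKO with Ctrl.

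The interaction of genotype and hemisphere, fitted over all 14 libraries, asks if the effect of the deletion was unequal on the 2 sides. None of the 9 genes was called (0 of 9 also at an unadjusted p under 0.05), as was none of the 18476 genes tested (0% called), of which 481 had an unadjusted p under 0.05. The difference of differences, cKO minus Ctrl, was -0.19 for *B4galnt1* (95% CI -0.64 to 0.26), 0.01 for *St3gal5* (95% CI -0.47 to 0.50) and 0.04 for *Neu1* (95% CI -0.31 to 0.39), with an adjusted p of 0.9999 for each. Over the 9 genes it ranged from -0.30 for *B4galt6* to 0.24 for *Ugcg*.

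*St3gal5* and *B4galnt1* act one after the other, and their levels per kb were set side by side in each library. The level of *B4galnt1* per kb was 0.204, 0.135, 0.160 and 0.222 times that of *St3gal5* in the CL libraries of Ctrl mice 3541, 3545, 3546 and 3551. In their IL libraries, the ratio was 0.495, 0.460, 0.422 and 0.537, and in the cKO CL libraries of mice 3592, 788 and 791 it was 0.445, 0.397 and 0.602. Ctrl IL and cKO CL thus had overlapping ratios. In the cKO IL libraries of mice 3592, 784 and 791, the ratio reached 0.922, 1.22 and 1.201, above all other libraries. The ratio combines the differences given above and was not tested on its own. Across the 14 libraries, the log2 levels of these genes had a Pearson r of -0.82, and after subtraction of the group means r was 0.16, so the inverse relation lay between the groups. The points of this correlation include both hemispheres of 6 mice.

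**Figure D4:**
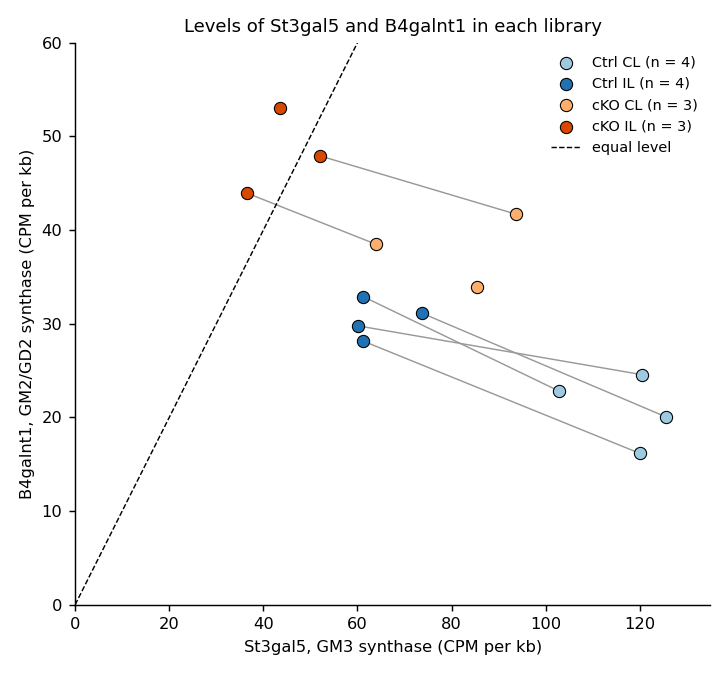
Level of *B4galnt1* against level of *St3gal5* (CPM per kb of exon, linear axes) in the 14 libraries, by group, with grey lines joining the hemispheres of a mouse. The dashed line marks equal levels. Only the cKO IL libraries of mice 784 and 791 lie above it, with ratios of 1.22 and 1.201, and the Ctrl CL libraries lie farthest below it.

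Among the 36 pairs of the 9 genes, r of the log2 levels after subtraction of the group means ran from -0.87 to 0.94 with a median of 0.10. It was highest for *Hexa* and *Gm2a*, at 0.94, and next for *Neu1* and *Hexa*, at 0.77, and lowest for *St3gal2* and *Hexa*, at -0.87. The 14 libraries hold both hemispheres of 6 mice, so they are not independent. With 1 mean per mouse over 8 mice, the values of these 3 pairs were 0.95, 0.79 and -0.98. Among the Ctrl CL libraries, *Hexa* was at 1477 and 1345 CPM in mice 3541 and 3545, where *St3gal2* was at 51.2 and 83.1 CPM, and at 1072 and 1193 CPM in mice 3546 and 3551, where *St3gal2* was at 124 and 106 CPM. The Ctrl CL libraries of the former 2 mice held 41.6 and 39.9 M reads and those of the latter 2 held 28.3 and 16.1 M reads, so depth moved with these levels in CL. In Ctrl IL, *St3gal2* was at 79.4 CPM in mouse 3546 at 12.2 M reads and at 77.3 CPM in mouse 3551 at 34.2 M reads, against 48.5 and 41.3 CPM in mice 3541 and 3545 at 35.1 and 35.2 M reads. *Hexa* was at 1366, 1290, 1285 and 1144 CPM in the Ctrl IL libraries of mice 3541, 3545, 3546 and 3551. On the scaled log2 levels behind r, these were 10.60, 10.51, 10.17 and 10.14, so scaling widened the gap between mice 3545 and 3546. The parts of depth and of scaling in these correlations were not tested.

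Other genes of the pathway were followed as 2 further lists, 15 for synthesis (sialyltransferases, sialic acid supply and nucleotide sugar transport) and 8 for breakdown. In IL against CL of Ctrl mice, 3 of 12 synthesis genes tested were called, 2 higher and 1 lower, and 0 of 6 breakdown genes, where 6.58% of all genes tested were called. Of the 6, 3 had an unadjusted p under 0.05, against 21.1% of all genes. *B4galt5*, the other lactosylceramide synthase, rose from 11.3 ± 3.14 to 24.8 ± 6.81 CPM (SD, n = 4 each, log2 fold change 1.14, adjusted p = 0.00878). *St3gal1*, a sialyltransferase of the same linkage as *St3gal2*, rose from 4.15 ± 0.540 to 8.16 ± 0.312 CPM (log2 fold change 0.90, adjusted p = 0.0257). *St3gal3* fell, from 14.7 to 27.1 CPM in CL to 4.13 to 15.1 CPM in IL (log2 fold change -1.42, adjusted p = 0.0307), but only in 3 of 4 mice, since mouse 3546 was at 14.7 CPM in CL and 15.1 CPM in IL. With the mouse as a block, 7 of 12 synthesis genes (4 higher, 3 lower) and 4 of 6 breakdown genes (3 higher, 1 lower) were called in Ctrl, against 20.5% of all genes in that fit.

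In IL against CL of cKO mice, 4 of 12 synthesis genes (3 higher, 1 lower) and 3 of 7 breakdown genes (2 higher, 1 lower) were called, against 22.4% of all genes tested. *B4galt5* and *St3gal1* rose here too, with log2 fold changes of 1.15 (adjusted p = 0.00234) and 1.21 (adjusted p = 0.00908). *Gne*, the entry enzyme of sialic acid synthesis, fell (log2 fold change -0.53, adjusted p = 0.0179), and *Nans*, the synthase of the phosphorylated sialic acid, rose (log2 fold change 0.44, adjusted p = 0.0225). Of the breakdown genes, *Psap*, the precursor of the saposins, rose from 1406 to 2266 CPM in CL to 2914 to 3636 CPM in IL (log2 fold change 0.85, adjusted p = 0.0227). *Scarb2*, a membrane protein of lysosomes, rose with a log2 fold change of 0.49 (adjusted p = 0.0234). *Gba2*, the glucosylceramidase outside lysosomes, fell (log2 fold change -0.48, adjusted p = 0.0263). *Gne*, *Nans*, *Psap*, *Scarb2* and *Gba2* moved in the same direction in Ctrl, where the main fit called none of them. Ctrl means in CL and IL were 34.5 and 24.8 CPM for *Gne* and 42.2 and 56.9 CPM for *Nans*. They were 1957 and 3773 CPM for *Psap*, 197 and 257 CPM for *Scarb2*, and 43.8 and 32.7 CPM for *Gba2*. With the mouse as a block, 2 of 12 synthesis genes and 1 of 7 breakdown genes were called in cKO (*B4galt5*, *St3gal1* and *Scarb2*), all 3 higher, against 13.8% of all genes. The other 4 lost their call, with an adjusted p of 0.105 for *Gne*, 0.0577 for *Nans*, 0.0959 for *Psap* and 0.0829 for *Gba2*. With 784 and 788 taken as 1 mouse in the block, all 7 were called (adjusted p from 0.00112 to 0.0297), and *St6galnac6*, a sialyltransferase, was added (log2 fold change 0.64, adjusted p = 0.0111). That fit called 5 of 12 synthesis and 3 of 7 breakdown genes, against 26.7% of all genes.

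Between the genotypes, *St8sia1* (GD3 synthase), which makes the GD3 on which *B4galnt1* can act, was the only gene of these 2 lists called. In CL it was at 1.80, 1.98, 2.01 and 2.36 CPM in Ctrl mice 3541, 3545, 3546 and 3551 and at 5.38, 9.49 and 5.93 CPM in cKO mice 3592, 788 and 791 (log2 fold change 1.35, SE 0.24, adjusted p = 0.0265). In IL, it was at 1.56, 2.16, 1.80 and 2.19 CPM in these Ctrl mice and at 3.53, 5.74 and 3.42 CPM in cKO mice 3592, 784 and 791. The genotypes did not overlap there either, but the gene was not called (log2 fold change 0.82, SE 0.21, adjusted p = 0.195). Its interaction of genotype and hemisphere had an unadjusted p of 0.125. In IL, 0 of 12 synthesis and 0 of 7 breakdown genes tested were called (1 in each list at an unadjusted p under 0.05), and in CL 1 of 13 and 0 of 6 (2 and 0 at an unadjusted p under 0.05). Over all genes tested, 0.658% were called in IL and 0.875% in CL, and 8.9% and 9.81% had an unadjusted p under 0.05. The median log2 fold change in CL was -0.02 over the 13 synthesis genes and 0.06 over the 6 breakdown genes, beside -0.06 over all genes tested. *St8sia3*, *St8sia5* and *Neu2* were under the filter in every comparison, at 0 to 0.328 CPM, and *St6galnac5* and *Neu4* in some.

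**Figure D5:**
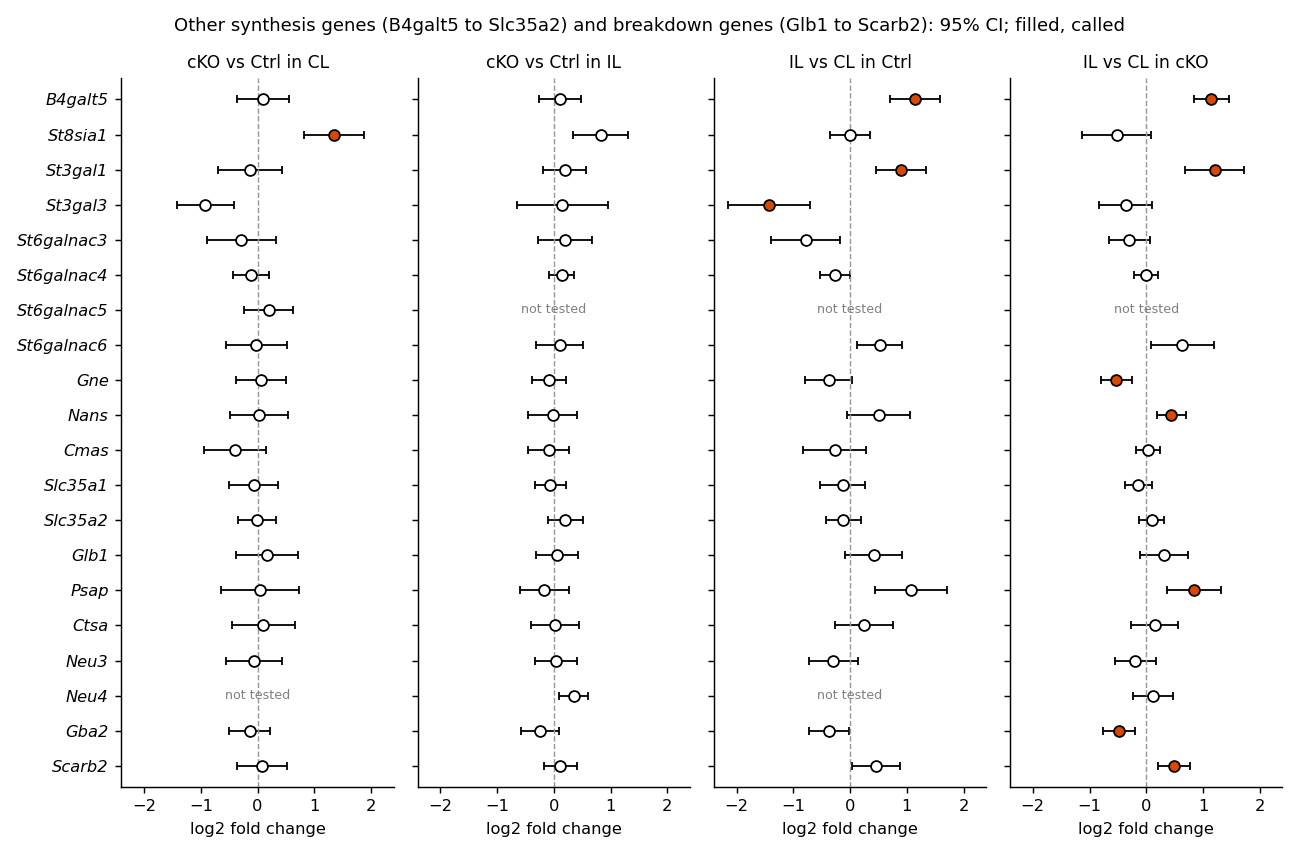
Log2 fold change with its 95% confidence interval for the 20 genes of both further lists tested in at least 1 of the 4 comparisons, on the log2(CPM + 1) scale. Filled points are called. *St8sia1* is the only filled gene between the genotypes, and *B4galt5* and *St3gal1* are filled in both comparisons of IL with CL.

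Among 18467 genes outside the 9, those with the pattern most like *B4galnt1* over the 14 libraries were *Dusp2* (Pearson r 0.98), *Alkbh5* (0.95), *Gm8615* (0.93), *Rassf3* (0.92) and *Nr4a1* (0.92). For *St3gal5* the nearest gene was *Lpar6* (0.97), for *Neu1* *Txnrd1* (0.98), for *Gm2a* *Tpp1* (0.97) and for *St3gal2* *Dnajb2* (0.95). *Hexa* was nearest to *Atxn10* (0.95), *B3galt4* to *Msl1* (0.93), *B4galt6* to *Ppp1r9b* (0.89) and *Ugcg* to *4933424M12Rik* (0.85). These are the highest of many correlations, and the points share the group means, the mice and the scaling.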

How the data were processed

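The 9 genes and the further lists were chosen with earlier results of these data known. Per the labels and the study's methods, libraries were made with a Smart Seq v4 kit, reads were mapped to mm10 with STAR, and Partek Flow 8.0 was used. The authors deposited a table named raw counts, but the values of each library sum to 1e+06 and were read as CPM. Of the values under 100 reads, 79.0% to 83.5% per library were whole multiples of 1 step within 0.03 reads, and the step gave the depth of 12.2 to 41.6 M reads. The authors' own tables of comparisons (fold changes and p-values) were not used. Because the CPM are not all whole reads, no count test was run.

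GENCODE M21 (GRCm38) named 33802 of 33939 identifiers, and levels between genes were divided by the length of the union of exons. CPM were divided by trimmed mean of M-values factors of the libraries compared (30% of M-values and 5% of A-values trimmed, no weights) and taken as log2(CPM + 1). The study's thresholds were kept, an adjusted p of 0.05 and a fold change of 1.2. Genes entered when 10 reads' worth at median depth (0.288 to 0.353 CPM) was reached in at least 3 or 4 libraries, the size of the smaller group. Two-sided tests came from limma (version 3.58.1, R version 4.3.3) with a variance trend, with Benjamini-Hochberg adjustment over the genes tested. The same steps were tested on simulated data. For cKO against Ctrl in IL, 10.4%, 44.8% and 78.8% of genes changed by a fold of 1.5, 2 and 4 were recovered among 17169 genes, so a change of 1.5-fold was usually missed at this number of libraries.

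The same mouse number marks the same animal, so IL and CL are paired. Across genes, deviations from the group means correlated with r of 0.182 to 0.608 in the 6 mice with both hemispheres, and of -0.536 to 0.503 in 19 other IL and CL pairs of a genotype. Numbers 784 and 788 were taken as separate mice, which the labels do not settle (deviations of this pair correlated with r of 0.181, against 0.182 in mouse 791), and a block with both as 1 mouse was added after seeing the data. Promoters are RefSeq sequences of GRCm38.p6 and were matched by symbol for 6 of 9 genes. The text names all 9 genes, the genes of the further lists called in the main fits (up to 6 per list by adjusted p), and overlapping genes. Genes of the further lists called only with the mouse as a block were not all named. Of the genes of most like pattern, 5 are named for *B4galnt1* and 1 for each other member. Some genes of the design, 2 of the breakdown list among them, are not reported here and not counted. Scaling by the trimmed mean over tested genes only was chosen after seeing the data. Python 3.11.15 did the remaining steps.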

Additional observations from a re-analysis of the deposited data

Results flagged for a closer look

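In 18 groups of 4 libraries (9 genes in Ctrl CL and Ctrl IL), 2 held a library far from the others by Dixon's test, where chance gives about 1 in 20. *B4galt6* in Ctrl CL was at 21.7 CPM in mouse 3546 and at 13.7 to 13.9 CPM in the other 3, a gap of 0.969 of the range. *St3gal5* in Ctrl IL was at 193 CPM in the same mouse 3546 and at 157 to 160.3 CPM in the other 3, a gap of 0.919 of the range.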

How the results depend on the processing

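Scaling and single libraries decided the call of *B4galnt1* between the genotypes. Against 0 of 9 genes called, 1 gene, *B4galnt1*, was called in IL with the deposited CPM, median-ratio scaling, upper-quartile scaling or the trimmed mean over tested genes (adjusted p from 0.0366 to 0.0438), and 1 in CL with the latter 3 scalings, with all 14 libraries in 1 fit, or with these and the mouse as a random effect (0.00434 to 0.0396). Leaving out single libraries gave 0 to 1 called genes in IL and in CL, 1 to 3 for IL against CL of Ctrl (main value 3), 2 to 3 for that of cKO, and 0 for the interaction. Calls fell to 1 in Ctrl without the IL library of mouse 3541, 3545 or 3551 or the CL library of mouse 3546. With the replicate block there were 4 called genes in Ctrl, with *Gm2a* added, and 2 in cKO, without *B4galnt1*, and the block changed no other call of the 9 genes, since *B4galnt1* in CL was called with all 14 libraries without the block too. With 784 and 788 as 1 mouse in the replicate block, 1 gene was called in CL (*B4galnt1*, adjusted p = 0.00842), 0 in IL and 4 in cKO, with *St3gal2* added (adjusted p = 0.0225), and 4473 of all genes were called in cKO. *B4galnt1* was also not called in Ctrl with a pseudocount of 0.5 or 0.1 or no filter, and in cKO with the deposited CPM, no filter or all 14 libraries in 1 fit. *St3gal2* was called in cKO with upper-quartile scaling, the trimmed mean over tested genes, the level reached in every library, or without the CL library of mouse 788 (adjusted p from 0.0358 to 0.0488). Over all genes, no filter called 67 against 111 in IL, 77 against 145 in CL, 535 against 1078 in Ctrl and 2436 against 3746 in cKO. The level reached in every library called 85 in CL. All 14 libraries in 1 fit called 265 between genotypes in CL, 2009 between hemispheres of Ctrl and 1391 of cKO, and the mouse block called 190 between genotypes in IL, 290 in CL, 3358 between hemispheres of Ctrl and 2315 of cKO. Leaving out single libraries called 46 to 284 genes of all tested in IL, 70 to 165 in CL, 487 to 1413 in Ctrl, 1881 to 3537 in cKO and 0 to 1 for the interaction. The count moved by over 1.5 times in IL without any library but that of mouse 3592, in CL without mouse 3545, 788 or 791, in Ctrl without an IL library other than that of mouse 3546 or the CL library of mouse 3545 or 3546, and in cKO without any IL library or the CL library of mouse 788. The cause of these moves was not tested.

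Differences near 0 changed sign, none of them called. With median-ratio scaling, upper-quartile scaling and the trimmed mean over tested genes, cKO against Ctrl in CL was 0.012, 0.053 and 0.020 for *St3gal2* and 0.016, 0.057 and 0.024 for *Neu1*, IL against CL in cKO was -0.017, -0.036 and -0.018 for *Hexa*, and the interaction was -0.054, -0.085 and -0.040 for *St3gal5* and -0.029, -0.060 and -0.015 for *Neu1*. With the deposited CPM, *Hexa* in cKO was -0.083 and the interaction of *St3gal5* -0.0028. Leaving out single libraries gave, for cKO against Ctrl in IL, -0.13 to 0.086 for *Ugcg*, -0.062 to 0.17 for *St3gal2*, -0.056 to 0.061 for *Neu1* and -0.13 to 0.027 for *Hexa*. In CL it gave -0.22 to 0.11 for *St3gal2*, -0.072 to 0.038 for *Neu1* and -0.10 to 0.15 for *Hexa*. For IL against CL it gave -0.043 to 0.20 for *Hexa* in Ctrl, and in cKO -0.19 to 0.051 for *Ugcg*, -0.12 to 0.026 for *B4galt6* and -0.11 to 0.097 for *Hexa*. For the interaction it gave -0.16 to 0.12 for *St3gal5* and -0.037 to 0.081 for *Neu1*. Where a cKO or Ctrl group was cut to 2 or 3 libraries, all groups were assumed to share 1 spread. Depth limits low genes most, since 10 reads are 0.288 to 0.353 CPM at median depth.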
